A study of Homo sapiens with 6 samples.

Results

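The genes described here code for ion channel subunits of HEK293, a human cell line that came from embryonic kidney. Members were all probes whose target name in the deposited intensity table begins with KCN, SCN, CACN, CLCN, TRPC, TRPM, TRPV, CHRN, HCN, P2RX, ASIC or ACCN. This gave 278 probes for 201 genes, out of 48701 probes and 42764 target names on the array. Of the 201 names, 194 are current human symbols and 7 are older ones, so that ACCN2, ACCN3 and ACCN4 are now ASIC1, ASIC3 and ASIC4. SCNM1, TRPC4AP and KCNQ1DN carry such names without being channel subunits and are set apart, which leaves 198 channel genes.

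Ion channels are membrane proteins that open a pore for chosen ions. Potassium channels hold or restore the resting potential, voltage-gated sodium and calcium channels drive excitation, and chloride channels and exchangers set chloride and pH on both sides of membranes. Many pores are tetramers, and some subunits of the voltage-gated potassium family form no channel alone but alter the partners they join. HEK293 cells are widely used as a host for cloned channels because their own currents are small.

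The cells had been transfected by Lipofectamine with SNRK-pEGFPN3, a plasmid coding for a fusion of human SNRK and green fluorescent protein, or with pEGFPN3, the empty parent, which makes the fluorescent protein only. SNRK belongs to the protein kinases that resemble AMP-activated protein kinase. Both groups had been transfected, and RNA was taken after 48 hours. Each group had 3 Illumina bead arrays, called GFP 1 to 3 and SNRK 1 to 3. The labels do not say whether the arrays of a group came from separate cultures, so a p-value rests on the variation among arrays, whose source may be technical. Cells that took up no plasmid were not removed as far as the labels say, and fewer cells with a transcript cannot be told apart from less transcript per cell.

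The median signal was 93.8 to 102 on all arrays, and 15133 to 16190 probes per array had a detection p under 0.01, called detected here. The SNRK probe read 350, 382 and 372 on GFP 1 to 3 and 486, 460 and 458 on SNRK 1 to 3 (log2 change 0.44 ± 0.09 SE, limma adjusted p = 0.0219). Whether that probe reads the plasmid transcript was not tested. Of 11 genes known from HEK293, 9 were detected on all GFP arrays, among them NEFL, NEFM, KRT8, KRT18 and VIM, while NEFH was detected on no array and PAX2 on at most 1 of each group. Their summed signal was 20632 to 21797 on GFP and 20249 to 23478 on SNRK arrays, and 1 of their 11 kept probes rose. Of 22 markers of other cell types, 14 were detected on no array, including PTPRC, CD3E, COL1A1 and CDH5. The 6 detected on all GFP arrays were GAD1, SNAP25, SYT1, ALB, COL3A1 and PECAM1, and their list summed to 3636 to 3927 on GFP and 3612 to 3867 on SNRK arrays, with none of 8 kept probes called. Over all kept probes of the array 12.9% were called, 6.88% as rises (kept and called are defined below). Counts as small as those of the marker lists do not show either list to be stable or changed.

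Of the 278 probes, 188 were detected on no GFP array, as were 31861 of all 48701 probes, so this is near the share of the whole array. Of the 201 genes, 97 had no probe detected on any array, and the share over all genes was not counted. Of the 278 probes, 57 (20.5%) were detected on all 3 GFP arrays, against 29% of all probes on the array. They belong to 56 genes. Another 33 probes were detected on 1 or 2 GFP arrays, as were 2708 of all 48701 probes. On none of the 6 arrays were 165 (59.4%) detected, against 62.5% of all probes. A probe below background gives an upper bound on its signal and does not show that the gene is silent. Transcript levels of different genes cannot be ranked by signal, since each probe binds with its own strength. Signals are given here for comparison between arrays and with the detection limit. A high signal serves only to choose which probes to name.

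The classes differed in how many probes were detected on all GFP arrays. The CLC family had 5 of 11, the nicotinic receptor subunits 6 of 16 and the inward rectifier potassium channels 7 of 20. At the other end, voltage-gated potassium channels had 7 of 60, voltage-gated sodium channels 1 of 17 and the potassium channels gated by calcium or sodium 0 of 11. That last class, with KCNMA1, KCNN1 to KCNN4, KCNT1 and KCNT2, had 8 probes detected on no array and 3 on a single SNRK array.

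**Figure D1:**
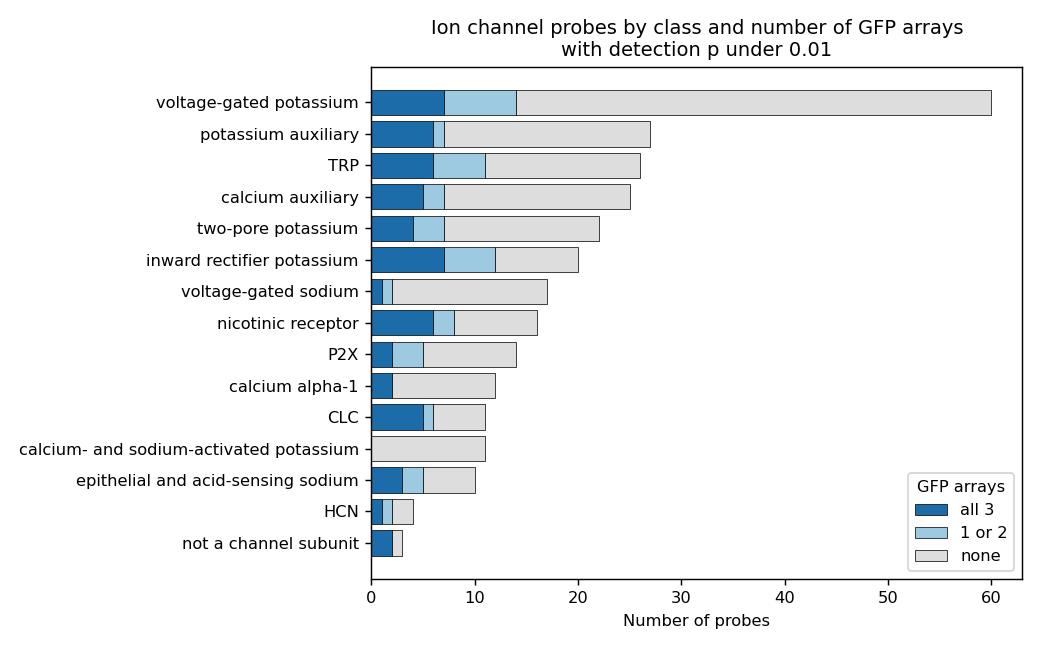
Number of ion channel probes (horizontal axis) in each class (vertical axis), split by the number of GFP arrays on which the probe had a detection p under 0.01. Of 278 probes, 57 were detected on all 3 GFP arrays, 33 on 1 or 2 and 188 on none, and the class gated by calcium or sodium has no detected probe.

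Among the probes with the highest signals in GFP cells, CLCN7, which codes for a lysosomal chloride/proton exchanger, read 1875, 1773 and 1619 on GFP 1 to 3. CLCN3, an exchanger of endosomes, read 639, 738 and 623. CHRNA5, a nicotinic subunit that forms channels only with other subunits, read 837, 911 and 836. ACCN2, which codes for a proton-gated sodium channel, read 596, 486 and 464. These 4 were far above the lowest signal that counted as detected, which was 109 to 115 on the GFP arrays. KCNJ10, an inward rectifier known from glia and kidney, read 377, 396 and 388, and KCNJ8, a pore subunit of ATP-sensitive channels, 328, 311 and 300.

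The channel genes detected on all GFP arrays covered several roles. Of the tandem pore-domain potassium channels, which carry background current, KCNK1, KCNK2, KCNK3 and KCNK12 were detected. Of the calcium channel genes, the pore subunits CACNA1C and CACNA1H were detected, with the auxiliary subunits CACNA2D1, CACNA2D2, CACNA2D3, CACNB2 and CACNB4. SCN9A was the only voltage-gated sodium gene detected on all GFP arrays. The TRP cation channels TRPC1, TRPM4, TRPM7, TRPV1 and TRPV4 and the ATP-gated channels P2RX3 and P2RX4 were detected as well.

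For the comparison of SNRK with GFP cells, a probe was kept if it was detected on all 3 arrays of at least 1 group. This kept 71 of the 278 probes, for 68 genes, and left 133 genes without a test. By limma, with p-values adjusted (Benjamini-Hochberg) across the 14964 probes kept on the array, 5 of the 71 rose and 7 fell at an adjusted p under 0.05 (16.9% in all). Over all kept probes 12.9% were called, 6.88% as rises and 6.06% as falls. The channel counts correspond to 7.04% and 9.86%. One of the 7 falls was SCNM1, so 5 channel subunit probes rose and 6 fell. The groups did not overlap for 28 of the 71 probes (39.4%), against 36.4% of all kept probes. Among the called probes, KCNV2, KCNJ4 and CHRNB3 were at least 2-fold lower, which 0.675% of all kept probes were. These 3 were named with earlier results of these data known, so setting them beside that share is a description and supports nothing. The fitted change of HCN2 was over 2-fold upward, as for 0.354% of kept probes, but HCN2 was detected on only 1 GFP array and its fold is not exact. The median log2 change was -0.02 over the 71 and 0.00 over all kept probes, and the median size of the change was 0.21 and 0.16.

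Rises and falls lay in different parts of the signal range. All 7 probes that fell were detected on all 6 arrays. Of the 5 that rose, only CLCN2 was detected on all 3 GFP arrays. HCN2 and KCNC4 were detected on 1 and ACCN3 on none. Such a probe entered the test only because it was high in SNRK cells, so the rises of such probes, and the p-values printed with them, are a description and support nothing. Of the 57 channel probes detected on all GFP arrays, 1 rose and 7 fell, where 921 and 907 of 14132 such probes of the whole array did so. More channel probes were detected on each SNRK array (89, 88 and 82) than on any GFP array (73, 69 and 73). All probes went in the same direction by a smaller share (15732 to 16190 against 15133 to 15685). Of the 278 channel probes, 14 were detected on all 3 SNRK and fewer than 3 GFP arrays, as were 832 of all 48701 probes. The reverse held for 3 channel probes and 416 of all probes. The part of this difference in detection in the rises was not tested.

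**Figure D2:**
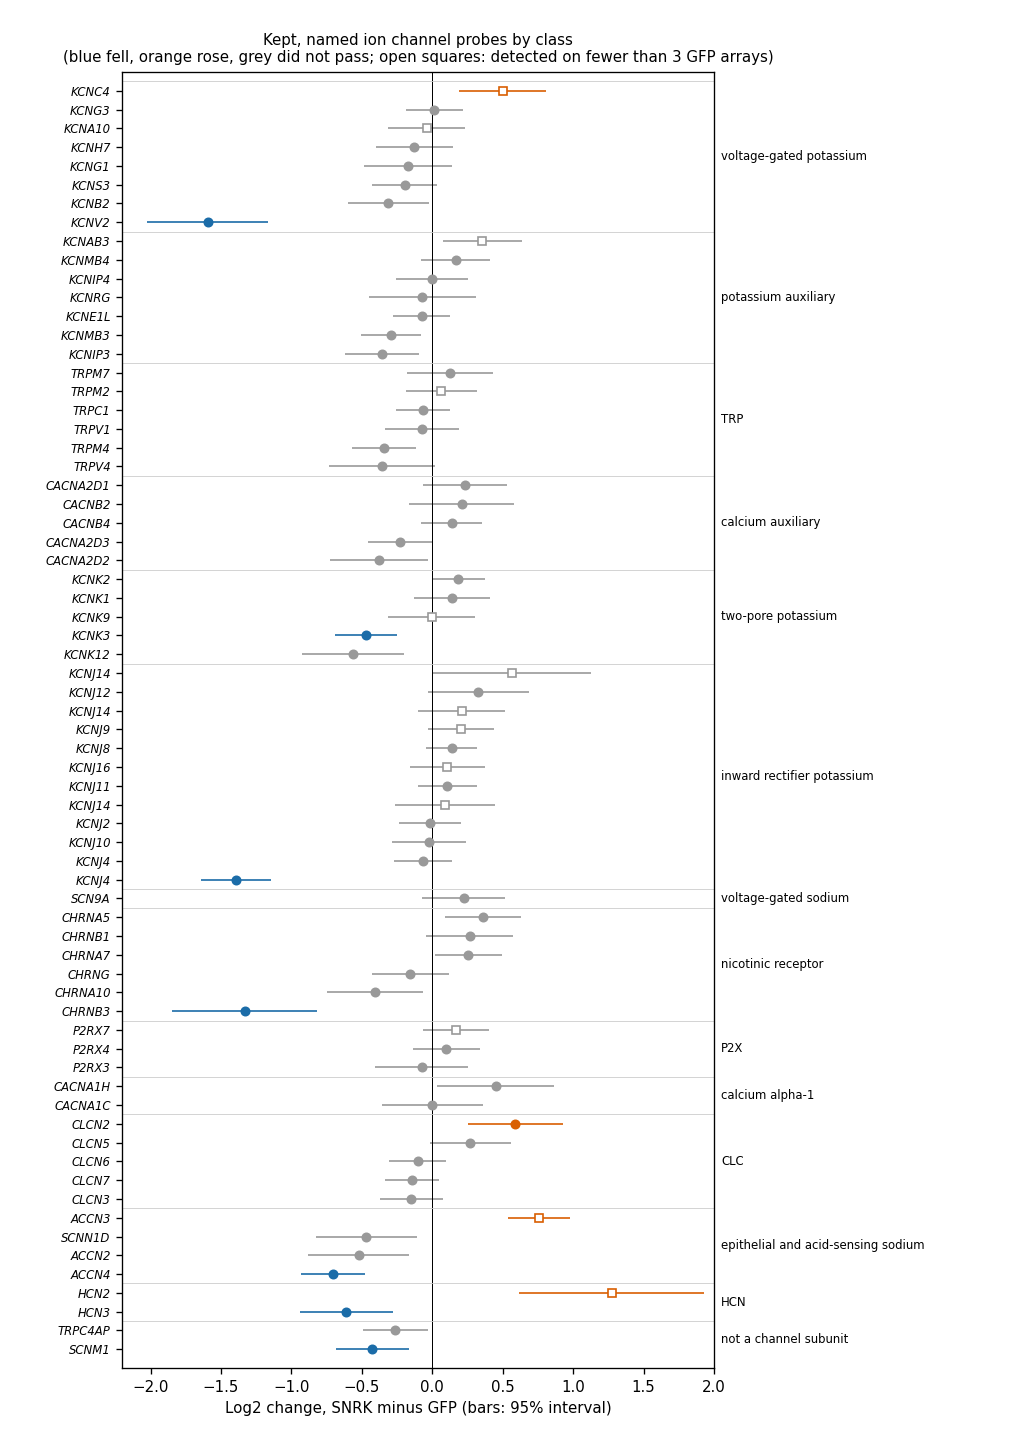
Log2 change of SNRK against GFP (horizontal axis, point) with its 95% interval (bar) for the kept probes of named genes, grouped by class. KCNV2, KCNJ4 and CHRNB3 lie furthest to the left, at -1.59, -1.39 and -1.33, and open squares mark probes detected on fewer than 3 GFP arrays, such as HCN2, ACCN3 and KCNC4.

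The promoter sequences of 5 of the changed genes are shown because they belong to the furthest falls, to the rise of a probe below background in GFP cells and to a pair of one family with fitted changes in opposite directions. They run from 250 bases before to 50 bases after the gene start of RefSeq, build GRCh38.p14, and are written from 5′ to 3′ on the gene's strand. Capitals mark the GC box GGGCGG on either strand, a motif bound by Sp1-type factors.
KCNV2, chr9:2717260-2717559, plus strand: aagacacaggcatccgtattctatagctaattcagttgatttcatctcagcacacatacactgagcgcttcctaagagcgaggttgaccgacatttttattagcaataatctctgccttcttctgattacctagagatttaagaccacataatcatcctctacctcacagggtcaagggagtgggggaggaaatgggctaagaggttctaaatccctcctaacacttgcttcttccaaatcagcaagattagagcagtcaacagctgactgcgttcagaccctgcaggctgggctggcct
KCNJ4, chr22:38443979-38444278, minus strand: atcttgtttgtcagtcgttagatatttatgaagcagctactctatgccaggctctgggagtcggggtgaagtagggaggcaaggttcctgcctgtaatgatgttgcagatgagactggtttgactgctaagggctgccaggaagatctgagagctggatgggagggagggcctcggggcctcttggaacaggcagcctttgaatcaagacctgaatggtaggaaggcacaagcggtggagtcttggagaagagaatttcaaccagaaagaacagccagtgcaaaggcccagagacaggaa
ACCN3, chr7:151048042-151048341, plus strand: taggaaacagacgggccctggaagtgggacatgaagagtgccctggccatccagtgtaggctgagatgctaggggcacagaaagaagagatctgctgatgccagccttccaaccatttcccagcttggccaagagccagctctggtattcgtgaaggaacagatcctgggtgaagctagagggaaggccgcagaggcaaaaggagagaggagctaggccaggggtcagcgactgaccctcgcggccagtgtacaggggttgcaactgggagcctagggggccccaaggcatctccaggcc
HCN2, chr19:589631-589930, plus strand: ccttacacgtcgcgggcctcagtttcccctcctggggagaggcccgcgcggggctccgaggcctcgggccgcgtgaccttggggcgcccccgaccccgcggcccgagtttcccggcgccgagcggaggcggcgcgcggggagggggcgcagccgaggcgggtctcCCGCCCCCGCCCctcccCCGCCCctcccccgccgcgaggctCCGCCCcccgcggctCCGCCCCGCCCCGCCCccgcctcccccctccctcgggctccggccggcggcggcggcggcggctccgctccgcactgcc
HCN3, chr1:155277213-155277512, plus strand: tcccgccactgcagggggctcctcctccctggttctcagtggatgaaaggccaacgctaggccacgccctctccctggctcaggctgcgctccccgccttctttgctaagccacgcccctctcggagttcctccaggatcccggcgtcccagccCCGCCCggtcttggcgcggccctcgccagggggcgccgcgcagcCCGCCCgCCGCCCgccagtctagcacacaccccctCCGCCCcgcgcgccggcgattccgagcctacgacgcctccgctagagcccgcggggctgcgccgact
The KCNV2, KCNJ4 and ACCN3 windows hold no GC box, with 46.0%, 51.7% and 59.3% G and C. The HCN2 window holds 7, some of them overlapping, at 84.7% G and C, and the HCN3 window 4 at 74.0%. A GC box is found in 44.6% of the 27305 promoters of the table, counting all genes. The same windows were searched on both strands for TATAAA, TGACGTCA (the cyclic AMP response element) and CTTTGAT (a core of TCF/LEF sites), which 11.95%, 1.98% and 2.64% of all promoters hold, and these letters were in none of the 5. Only 141 of the 201 genes had a promoter in the table, and these may not stand for all members. A GC box was in 62.4% of the 141, and their median was 65.0% G and C, against 58.3% over all promoters. Whether the members differ from other genes was not tested.

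KCNV2 and KCNJ4, both potassium channel genes, had the furthest falls and were called lower in all 17 other fits tried. KCNV2 codes for a subunit that is silent alone and alters KCNB-type channels in photoreceptors. Its probe, ILMN_1655216, read 463, 429 and 376 on GFP 1 to 3 and 201, 233 and 156 on SNRK 1 to 3. The lowest GFP value was well above the highest SNRK value. The log2 level was 8.44 ± 0.14 in GFP and 6.84 ± 0.41 in SNRK cells (SD, n = 3 arrays each), a fall of 3.02-fold (log2 change -1.59 ± 0.19 SE, limma adjusted p = 0.00347). KCNB2, which codes for a pore subunit that KCNV2 can join, had a log2 difference of -0.31 ± 0.13, which was not called (adjusted p = 0.136).

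KCNJ4 codes for a strong inward rectifier of heart and brain. Probe ILMN_1800179 read 432, 423 and 376 on GFP 1 to 3 and 209, 196 and 212 on SNRK 1 to 3, and the groups lay far apart. Its log2 level went from 8.38 ± 0.08 to 6.99 ± 0.18 (SD, n = 3 arrays each), a fall of 2.63-fold (log2 change -1.39 ± 0.11 SE, limma adjusted p = 0.000359). A further KCNJ4 probe, ILMN_1697620, read 141, 133 and 131 on the GFP and 138, 149 and 128 on the SNRK arrays. Here the groups overlapped, and the log2 change was -0.07 (95% interval -0.27 to 0.14, adjusted p = 0.652). The third, ILMN_1703667, was detected on no array. The log2 difference between the first and the further probe fell from 2.41 ± 0.07 in GFP to 1.09 ± 0.31 in SNRK cells (SD), without overlap. An exact permutation test over arrays gave a two-sided p = 0.1, the smallest that 3 against 3 allow. The first probe was taken for its call and the further one varied little, so this separation followed from the choice and supports nothing. By the fit of each probe, the fall of KCNJ4 is that of 1 of its probes. Where these probes lie in the transcript is not known here.

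No other inward rectifier probe was called. KCNJ2 and KCNJ12, the closest relatives of KCNJ4 with a probe detected on all GFP arrays, had log2 changes of -0.02 (95% interval -0.24 to 0.20) and 0.33 (-0.03 to 0.68), and neither passed (adjusted p = 0.932 and 0.192). KCNJ14, a further relative, had 0.57, 0.21 and 0.09 at its 3 kept probes, none of which passed (adjusted p = 0.160, 0.324 and 0.731). These KCNJ14 probes were detected on 1, 1 and 2 GFP arrays and kept through the SNRK group alone, so their values are a description. KCNJ10, KCNJ8 and KCNJ11 had -0.02, 0.14 and 0.11, also without a call. In all, 1 of 12 kept probes of this class fell, 0 rose and 11 did not pass, where 6.06% of all kept probes of the array fell and 6.88% rose.

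CHRNB3 codes for a beta subunit of neuronal nicotinic acetylcholine receptors. Probe ILMN_1736218 read 244, 222 and 192 on GFP 1 to 3 and 122, 167 and 128 on SNRK 1 to 3. SNRK 2 was the highest of its group and still below all GFP values. The log2 level fell from 7.19 ± 0.20 to 5.86 ± 0.49 (SD, n = 3 arrays each), a 2.51-fold fall (log2 change -1.33 ± 0.22 SE, limma adjusted p = 0.0122). CHRNB3 missed the threshold without GFP 1 (adjusted p = 0.0594) and without GFP 2 (0.0578). Without background correction the log2 change was -0.72, and in the authors' processed values -0.42, with the call kept in both.

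None of the other kept nicotinic subunits passed. CHRNA5 read 980, 1236 and 964 on the SNRK arrays, above all 3 GFP values given earlier, with a log2 change of 0.36 ± 0.12 (adjusted p = 0.0810). CHRNA7, whose product forms channels of a single subunit type, had 0.26 ± 0.10 (adjusted p = 0.135), and the muscle subunit CHRNB1 0.27 ± 0.14 (adjusted p = 0.218). CHRNA10, of the hair cell receptor, had -0.40 ± 0.15 (adjusted p = 0.106) and the fetal muscle subunit CHRNG -0.16 ± 0.12 (adjusted p = 0.407). CHRNA10 and CHRNG were each detected on only 2 SNRK arrays and kept through the GFP group alone, so their values are a description. Of the 6 kept nicotinic probes, 1 fell, 0 rose and 5 did not pass, too few to set beside the 6.06% of all kept probes that fell and the 6.88% that rose.

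**Figure D3:**
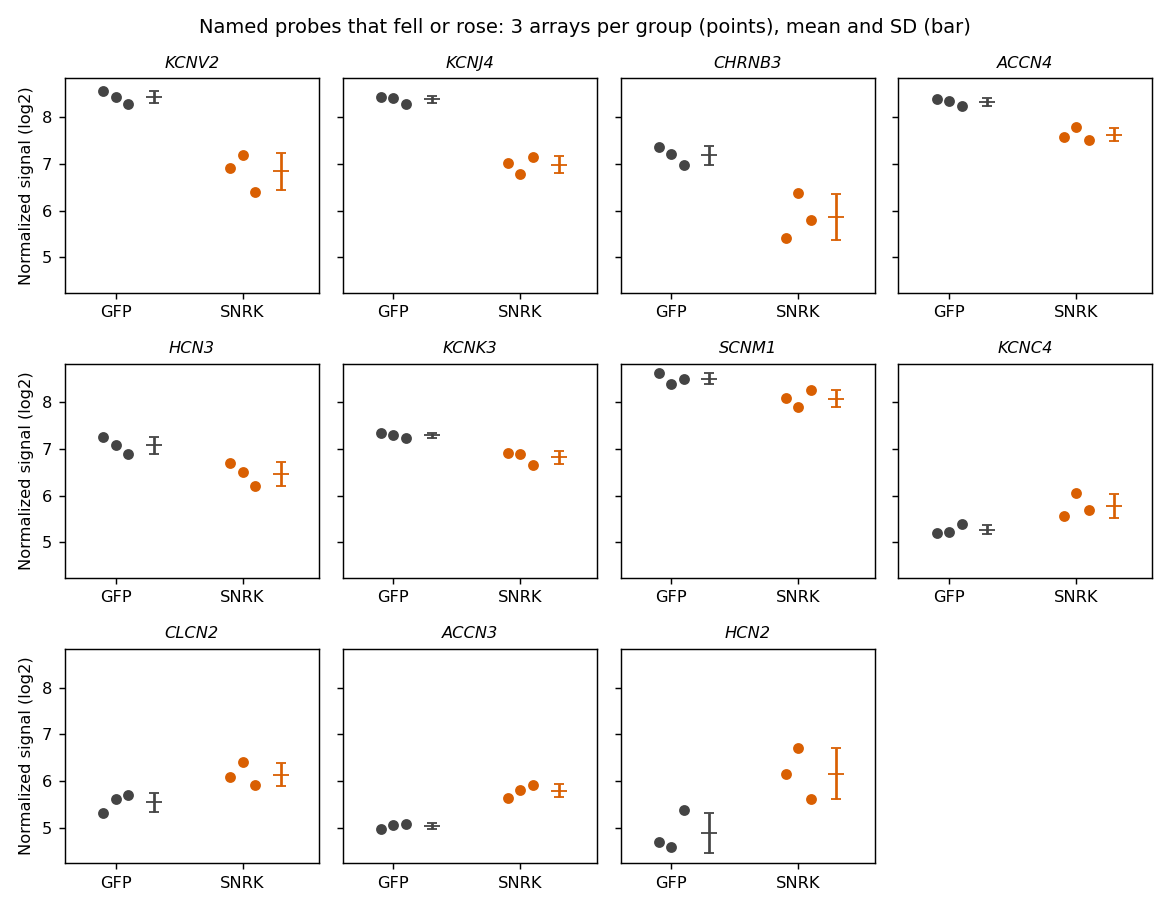
Normalized log2 signal (vertical axis) on each array (points) for the called probes of named genes, with the group mean and SD beside them, GFP in grey and SNRK in orange. In every panel the groups are apart, KCNV2 going from 8.44 to 6.84 and HCN2 from 4.88 to 6.16, and the probes that rose start near the bottom of the signal range.

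Among the genes of acid-sensing sodium channels ACCN4 fell, and ACCN3 was above background in SNRK cells alone. ACCN4, whose product is a member of this family without proton-gated current of its own in rodents, read 421, 409 and 364 on GFP 1 to 3 and 267, 304 and 250 on SNRK 1 to 3. The groups were separate, and the log2 level fell by 0.70 ± 0.10 (SE), or 1.63-fold (n = 3 arrays each, limma adjusted p = 0.00688). The ACCN3 probe, for a subunit known from sensory neurons, read 108, 104 and 104 on the GFP arrays, none of them detected, and 130, 139 and 133 on the SNRK arrays, all detected. As a description, since the probe was kept through the SNRK group alone, its signal there was at least 1.45-fold higher (limma adjusted p = 0.00464). That bound sets the mean log2 signal of the SNRK arrays, 5.79 ± 0.14 (SD), against the mean detection limit of the GFP arrays. The limits were 5.22, 5.27 and 5.30 on GFP 1 to 3. The probe's own log2 signal was below the limit on each GFP array, with a mean of 5.04 ± 0.06 (SD). Without background correction the log2 change of ACCN3 was 0.28, with the maximum likelihood background it was 0.35, and in the authors' values 0.13, so the size of the bound rests on the background method used. ACCN2 read 381, 328 and 438 on the SNRK arrays, below its GFP values, with a log2 change of -0.52 ± 0.16 that did not pass (adjusted p = 0.0621). SCNN1D, which codes for the delta subunit of the epithelial sodium channel, had -0.47 ± 0.16 (adjusted p = 0.0833).

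The pair of measured HCN genes, which code for pacemaker channels opened by hyperpolarization and cyclic nucleotides, had fitted changes in opposite directions. HCN2 read 99.9, 90.3 and 112 on the GFP arrays, of which only GFP 3 was detected, and 152, 189 and 121 on the SNRK arrays. The lowest SNRK value was near the highest GFP value. The fitted log2 change was 1.27 ± 0.29 (SE, limma adjusted p = 0.0280), with the widest error of the called probes, and is a description, since GFP 1 and GFP 2 give only upper limits and the probe was kept through the SNRK group. HCN3 read 231, 208 and 187 on GFP 1 to 3 and 185, 176 and 146 on SNRK 1 to 3, where the highest SNRK signal nearly met the lowest GFP signal. Its log2 change was -0.61 ± 0.14, a 1.53-fold fall (adjusted p = 0.0317). Both calls were lost in several fits with 1 array left out, in which calls over the whole array also went down. Those were 1937 as reported and 344, 296, 380 and 1099 without GFP 1, GFP 2, SNRK 1 and SNRK 2. Without GFP 1 or GFP 2 the adjusted p was 0.108 and 0.106 for HCN2 and 0.122 and 0.108 for HCN3, and without SNRK 1 or SNRK 2 it was 0.0906 and 0.0572 for HCN2 and 0.0538 and 0.0650 for HCN3. Without background correction the log2 changes were 0.54 and -0.36. In the authors' values they were 0.26, no longer called (adjusted p = 0.0543), and -0.22.

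Of 5 kept tandem pore-domain probes, KCNK3 fell and 4 did not pass, too few to set beside the 6.06% of all kept probes that fell. KCNK3 codes for a background potassium channel closed by external acid. It read 241, 231 and 216 on GFP 1 to 3 and 202, 204 and 173 on SNRK 1 to 3, a modest shift without overlap (log2 change -0.47 ± 0.10 SE, 1.38-fold, limma adjusted p = 0.0219). KCNK3 missed the threshold without GFP 1 (adjusted p = 0.0935), GFP 2 (0.0904) or SNRK 1 (0.0560), and the log2 change was -0.30 without background correction and -0.18 in the authors' values. KCNK12, a relative that gives little current when expressed alone, stood just beyond the threshold with -0.56 ± 0.16 (adjusted p = 0.0526). KCNK1 and KCNK2 had 0.14 ± 0.12 and 0.19 ± 0.08 (adjusted p = 0.450 and 0.164).

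KCNC4 and CLCN2 were also called higher, both near background, KCNC4 being detected on 1 GFP array and kept through the SNRK group alone. KCNC4, for a fast potassium channel of spiking neurons, read 114, 108 and 112 on the GFP and 127, 150 and 124 on the SNRK arrays, where SNRK 2 stood above the other two (fitted log2 change 0.50 ± 0.14 SE, limma adjusted p = 0.0466). CLCN2, for a chloride channel opened by hyperpolarization, read 117, 120 and 121 and then 148, 168 and 133 (0.59 ± 0.15, adjusted p = 0.0370). A further probe of KCNC4 was detected on no array. In the authors' processed values neither gene passed (log2 changes 0.09 for KCNC4 and 0.13 for CLCN2), and without background correction the log2 changes were 0.20 and 0.26, with CLCN2 called and KCNC4 not.

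Each of these calls was also lost in several fits with 1 array left out. For CLCN2 this happened without GFP 1, GFP 2, SNRK 1 or SNRK 2, with adjusted p from 0.0803 to 0.132. For KCNC4 it happened in all 6 such fits, with adjusted p from 0.0507 to 0.153.

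SCN9A, for a sodium channel of sensory neurons, was at 0.22 ± 0.13 (log2 change), which was not called (adjusted p = 0.272). The other voltage-gated potassium genes kept did not pass either. KCNG1 and KCNS3, for silent subunits of the kind of KCNV2, had -0.17 ± 0.14 and -0.20 ± 0.10 (adjusted p = 0.429 and 0.227). KCNG3, KCNH7 and KCNA10 had 0.02, -0.13 and -0.04. KCNH7 was kept through the GFP group alone and KCNA10 through the SNRK group alone, so the values of both are a description.

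Among the other classes, none of the kept probes passed apart from those named. These were 7 of potassium channel auxiliary subunits, 5 of calcium channel auxiliary subunits, 2 of calcium channel pores, 7 of TRP channels and 3 of P2X receptors. Over all kept probes of the array 12.9% were called. The smallest p in them belonged to TRPM4, a cation channel opened by calcium, which read 178, 165 and 171 on GFP 1 to 3 and 160, 154 and 159 on SNRK 1 to 3 (log2 change -0.34 ± 0.10, adjusted p = 0.0580). KCNMB3, an auxiliary subunit of a calcium-activated channel, had -0.29 ± 0.09 and KCNIP3, a calcium-binding partner of A-type channels, -0.36 ± 0.12 (adjusted p = 0.0707 and 0.0771). CACNA1H, a low-voltage calcium channel gene, had 0.45 with an interval of 0.04 to 0.86 (adjusted p = 0.132), and CACNA1C, a high-voltage one, 0.00 with -0.36 to 0.36. For the chloride/proton exchanger genes CLCN3, CLCN5, CLCN6 and CLCN7 the log2 changes were -0.15, 0.27, -0.10 and -0.14, and none passed (adjusted p from 0.181 to 0.455). TRPM7, TRPC1 and P2RX4 had 0.12, -0.07 and 0.10.

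Of the names that are not channels, SCNM1, which codes for a splicing protein, read 482, 418 and 424 on the GFP and 347, 322 and 376 on the SNRK arrays (log2 change -0.43 ± 0.11 SE, limma adjusted p = 0.0448). TRPC4AP, an adaptor of a ubiquitin ligase, had -0.26 ± 0.10 and did not pass (adjusted p = 0.122). The SCNM1 call was lost in 5 of the 6 fits with 1 array left out, all but that without SNRK 3, with adjusted p from 0.0836 to 0.160.

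Few channel genes had more than 1 informative probe. Of 45 genes with several probes, 0 had all of them detected on all GFP arrays, 15 had some and 30 had none. Only KCNJ4 and KCNJ14 had several kept probes, so for the other 66 tested genes the change is that of a single probe.

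Of a list of 90 other channel and ion pump genes outside the naming rule, 88 were on the array. Of its 71 kept probes 11 rose, 1 fell and 59 did not pass (16.9% called, against 12.9% of all kept probes, 6.88% up and 6.06% down), and the median log2 change was 0.04. Whether its balance differs from that of the named families was not tested. GRINA, for a membrane protein with a glutamate receptor name, read 606, 646 and 782 on the GFP and 1408, 1608 and 1199 on the SNRK arrays, a log2 rise of 1.18 ± 0.17 (SE, limma adjusted p = 0.00680), and the groups lay apart. The calcium channel gene ORAI1 rose by 0.55 ± 0.08 (adjusted p = 0.00840). SLC12A2, for a sodium, potassium and chloride cotransporter, rose by 0.55 ± 0.14 (adjusted p = 0.0378). With 1 array left out the list had 2 to 16 rises and 0 to 2 falls, 3 and 0 without GFP 1, 2 and 0 without GFP 2, 3 and 0 without SNRK 1 and 3 and 0 without SNRK 2.

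The counts for the channel families changed in these fits as well. There were 1 rise and 3 falls without GFP 1, 1 and 3 without GFP 2, 1 and 4 without SNRK 1 and 2 and 5 without SNRK 2. Without GFP 3 there were 5 and 8, and without SNRK 3 there were 9 and 13. Over the whole array the share of probes called went from 1.95% without GFP 2 to 17.5% without SNRK 3. KCNV2, KCNJ4 and ACCN4 kept their calls in all 17 other fits, with adjusted p up to 0.0241, 0.00475 and 0.0432. ACCN3 was called in the 16 that measured it, with adjusted p up to 0.0443, but as a probe kept through the SNRK group this says nothing of its stability. The size of the KCNV2 and KCNJ4 falls depended on the scale. In the authors' processed values, in which no probe reads near 0, the log2 changes were -0.79 and -0.71.

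**Figure D4:**
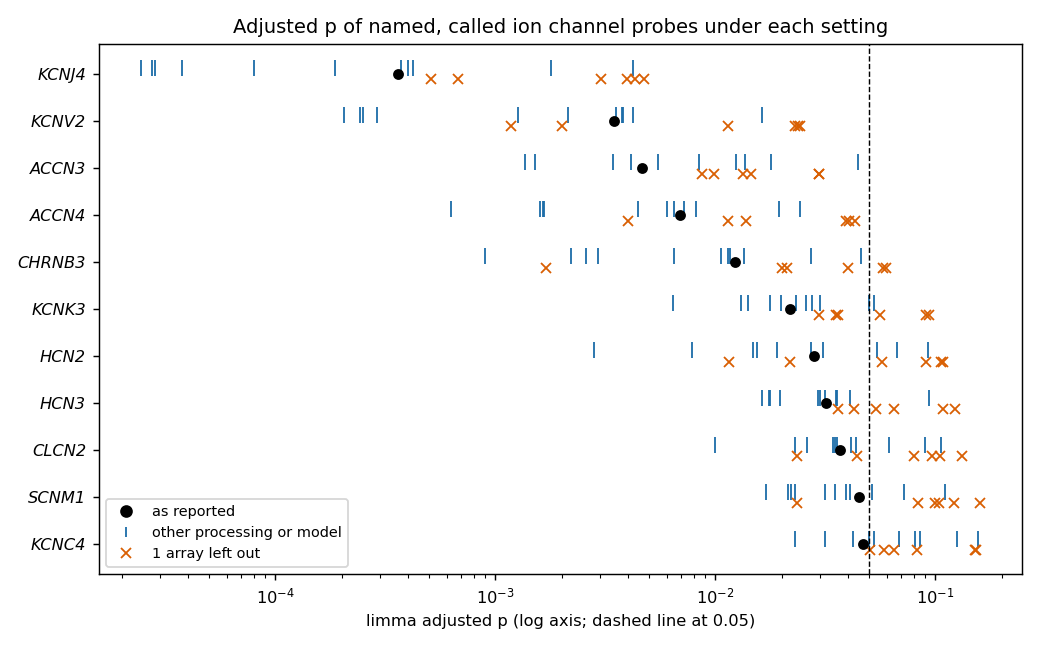
Adjusted p from limma (horizontal log axis, dashed line at 0.05) of the called probes of named genes (vertical axis) as reported (black), under other processing or models (blue) and with 1 array left out (orange). All marks of KCNJ4, KCNV2, ACCN3 and ACCN4 lie left of the line, the highest being 0.0443 for ACCN3, while each other probe has marks on both sides.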

How the data were processed

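Total RNA of 6 HEK293 samples, 3 per group, was turned into biotin-labelled cRNA and hybridised to Illumina bead arrays, per the labels' protocols. The authors deposited a table of 48701 probes that pairs each array's intensity, which is linear and not normalized per the file headers, with a p-value for detection. The deposited p-value is taken to compare a probe with the negative controls. A second deposited table holds the authors' normalized intensity, linear and in whole numbers, with the same median of 170 on every array. The submitters' processing notes name lumi, with no version or steps.

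The intensities went through neqc of limma 3.58.1 (R 4.3.3), which infers the negative controls through the detection values, adds an offset of 16, normalizes by quantiles and takes log2. A probe was kept when its detection p was under 0.01 on each of the 3 arrays in 1 group or both. The group was the only term of the linear model over all 6 arrays (lmFit, eBayes, two-sided), and p-values were adjusted by Benjamini-Hochberg across the 14964 probes kept. The model was tested on simulated data with noise drawn independently for each probe and array. That test had no shared array effects, background correction or detection filter, so it does not cover them. Differences are SNRK minus GFP on the log2 scale. Named are KCNV2, KCNJ4, CHRNB3, every called member with the other probes of its gene, the 12 brightest in GFP, up to 3 of the smallest p that did not pass, and kept members of each class. The members and lists were chosen with earlier results of these data known. Promoters and current symbols are from RefSeq GRCh38.p14. Probe positions were not used here. Some kept and called probes are counted but not reported here by name.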

Additional observations from a re-analysis of the deposited data

How the results depend on the processing

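The called channel probes kept their direction in all fits tried, which changed background correction, normalization, the detection filter, the moderation or weights, or left out 1 array. Falls, 7 as reported, were 15 with array weights and 5 to 9 under the other changes of processing or model. Rises, 5 as reported, were 11 with array weights, and 1 each in the authors' processed values, without the detection filter, with detection on all 6 arrays and with the replicate number as a block. With 1 array left out there were 1 to 9 rises and 3 to 13 falls. Of the 12 calls, 5 were kept without the detection filter, which tests 48701 probes, and 6 with the replicate block, where KCNK3 had an adjusted p of 0.0501. Without the filter KCNH3, detected on no array, was called lower. The replicate numbers were not taken as pairs, since arrays of the same number correlated at -0.06, -0.13 and -0.30 in their deviations from the group means, and no array correlated best with its own number. All probes called on the array were 1937 as reported, 731 with the block, 669 without the filter, 4266 with array weights and 296 to 2662 with 1 array left out. Channel probes detected in GFP cells were 57 on all 3 arrays, 90 on at least 1 array, 77 at a detection p under 0.05 and 60 to 61 with 1 GFP array left out. The rises named above began near or below the detection limit in GFP cells. HCN2, for instance, read 99.9, 90.3 and 112 where the lowest detected signal was 115, 109 and 109 on GFP 1 to 3. What part this has in the size of the rises was not tested.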
